A study of Mus musculus with 8 samples.

Results

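The genotype comparison in regenerating liver set 2 arrays of Tob1 null mice against 2 arrays of wild type mice, all taken 24 h after 2/3 hepatectomy. These 4 arrays were chosen by their sample titles and are 4 of the series' 8; the others are the same genotypes at 0 h. Each array was an Affymetrix mouse array hybridised with biotin-labelled RNA from a different pool of 3 livers. The animals were C57BL/6 males aged 7 to 10 weeks. The Tob1 null mice came from a single Tob1 null line kept on the C57BL/6 background, and nothing in the labels names a promoter or cell type that limits the loss. For surgery, ketamine and xylazine were given and the left lateral and median lobes were ligated, which leaves the smaller lobes to grow. The mice at 0 h were adults without hepatectomy, and no group was sham operated. All 45037 non-control probe sets were considered, 30525 of them passed a filter on low signal, and these gave 14450 named genes.

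Tob1 is an antiproliferative protein of the BTG/TOB family. Its members recruit the deadenylases of the CCR4-NOT complex to mRNAs and so promote the shortening of their tails. After removal of liver lobes, the remaining hepatocytes leave quiescence, copy their DNA and divide until the mass is restored, while they go on with their work in fat, sugar and bile acid metabolism and in detoxification. In mice the peak of hepatocyte DNA replication usually comes later than the time sampled here. The series title calls Tob1 a repressor of liver regeneration, and the comparison asks how gene expression in the regrowing liver differs without it.

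Values are normalised expression on a log2 scale, and a difference is null-labelled minus wild type ± its standard error from limma, with 2 arrays in each group. The threshold for a gene was a two-sided p under 0.05 after Benjamini-Hochberg adjustment over the whole table. The label of the null arrays could not be borne out by the targeted gene. The brighter of 2 Tob1 probe sets read 10.66 and 10.58 in the arrays labelled null and 9.87 and 10.20 in wild type, so that the null-labelled arrays were higher (0.59 ± 0.15, adjusted p = 0.272). The dimmer probe set read 2.78 and 3.83 against 4.27 and 4.96 (difference -1.30, adjusted p = 0.559 among probe sets). Neither passed. A probe set outside the deleted part would check nothing, and whether either one lies inside it is not known here. The arrays are therefore called null-labelled, and every direction rests on the labels. Of the other family members and partners, Tob2 (-0.27), Btg1 (0.24), Btg2 (-0.68) and the deadenylase Cnot7 (-0.23) had adjusted p values of 0.696, 0.589, 0.83 and 0.489. The arrays of Btg2 overlapped, at 6.67 and 7.76 against 9.49 and 6.30, and its difference ran from -2.28 to 0.92 as single arrays were left out. Other Btg1 probe sets gave 0.18 and -0.05.

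Over all 8 arrays, the second null-labelled array at 24 h stood apart by its deposited values, with a 25th percentile of 2.26 where the others had 2.59 to 2.88. Replicate arrays at 24 h correlated at 0.949 in the null-labelled and 0.960 in the wild type group, and pairs across the genotypes at 0.947 to 0.954. RNA quality can be read from the log2 ratio of 3′ over 5′ actin probe sets, which was 1.22 and 1.32 in the null-labelled and 1.03 and 0.91 in the wild type arrays, which do not overlap, and its part in the results below was not tested. Hepatocyte markers were high on every array. Their summed linear signal over 17 genes was 117408 and 118652 in null-labelled and 124139 and 123993 in wild type arrays.

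In the whole comparison, 1 of 14450 genes passed, the glutathione transferase Gstm3, which was higher in null-labelled liver (0.00692% of genes called higher and 0% lower). At an unadjusted p under 0.05, 925 genes were higher (6.40%) and 770 lower (5.33%). The split depends on the scaling, at 847 higher and 877 lower on the deposited values and 1421 and 359 with median centring, which moved the median of all genes to 0.14. The arrays of the groups did not overlap for 3026 genes in the higher direction (20.9%) and 2852 in the lower (19.7%). A difference of at least 2-fold was seen in 378 genes that were higher and 205 that were lower, and the arrays did not overlap for 321 and 164 of them. The median difference over all genes was 0.01. With 2 arrays against 2, a permutation of labels for a single gene cannot give a two-sided p below 0.333, so single genes rest on limma's pooled spread, which here is the spread between pools of animals. Leaving out any 1 of the 8 arrays ended the call of Gstm3 (adjusted p 0.0678 to 0.190). A trended and robust prior called 109 genes, 59 higher and 50 lower, and among these were 20 of the 24 genes shown by array below.

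**Figure D1:**
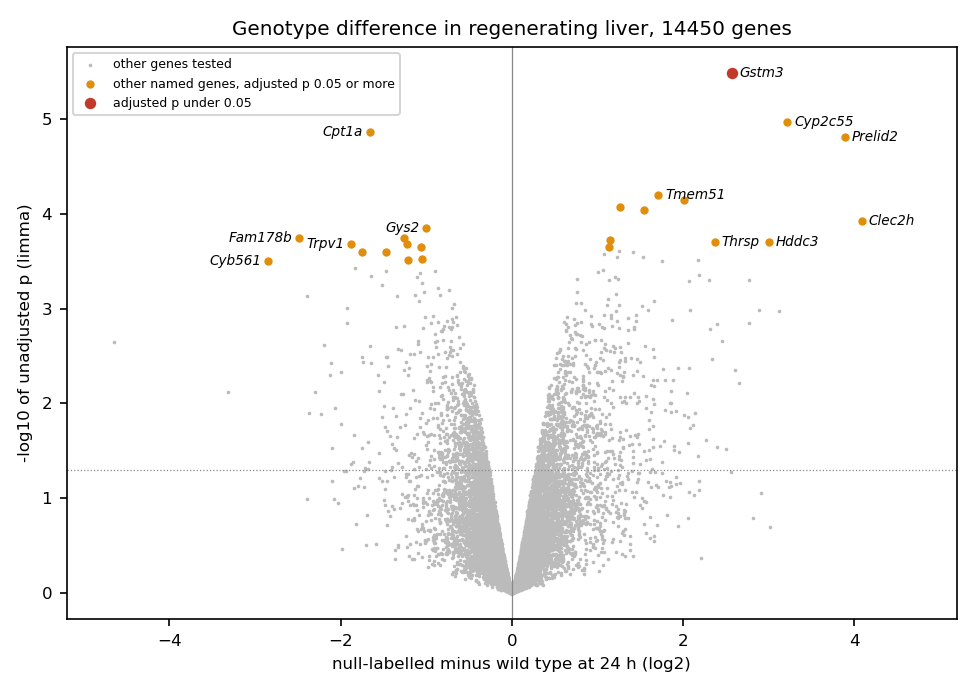
Difference between null-labelled and wild type liver at 24 h (x axis, log2) against the -log10 of limma's unadjusted p (y axis) for 14450 genes, with the dotted line at 0.05. Gstm3 (red) is the only gene with an adjusted p under 0.05, and Cyp2c55, Prelid2 and Cpt1a follow with an adjusted p of 0.0561.

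The genes of smallest p included enzymes of detoxification and of lipid metabolism. Gstm3, a mu-class glutathione transferase, read 12.46 and 12.30 in the null-labelled arrays and 9.68 and 9.93 in wild type. The groups lay far apart, and Gstm3 rose by 2.58 ± 0.16 on the log2 scale, or 5.96-fold (adjusted p = 0.0472). A second Gstm3 probe set differed by 3.22 in the same direction. Next came Cyp2c55, a cytochrome P450 that oxidises fatty acids, at 9.06 and 8.75 against 5.51 and 5.86 (3.22 ± 0.24, 9.31-fold, adjusted p = 0.0561). Wild type liver at 0 h had a mean Cyp2c55 level of 8.00 and null-labelled liver 8.67, so that at 24 h the wild type arrays were the ones far from the 0 h level. Ptgr1, a reductase that inactivates leukotrienes and reactive alkenals, read 7.33 and 7.48 against 5.15 and 5.62 (2.01 ± 0.21). Clec2h, a C-type lectin, read 6.73 and 6.16 against 1.70 and 3.01. Both wild type values of Clec2h lie under 3.60, the limit of the filter on low signal, and folds against such values are not reliable.

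The other genes named on the higher side were Thrsp, a regulator of lipogenesis known as Spot14, the ubiquitin-like protease Usp18, the mitotic kinesin Kif4, and Nmral1, Cdpf1, Tmem51, Prelid2 and Hddc3. Thrsp read 10.34 and 10.80 in null-labelled and 8.23 and 8.17 in wild type arrays (2.37 ± 0.30), and a second probe set gave 2.16. Another, dimmer Thrsp probe set gave -0.16. Nmral1, a sensor of NADPH, read 6.49 and 6.38 against 5.21 and 5.14 (1.26). Cdpf1 read 7.09 and 7.13 against 6.08 and 5.84 (1.15). Beyond Gstm3, Cyp2c55 and Prelid2, the genes of this side had an adjusted p of 0.147, so none of them passed, although in each the 2 groups of arrays were apart.

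On the lower side, Cpt1a led. Cpt1a is the carnitine palmitoyltransferase that admits long-chain fatty acids to mitochondria. It read 9.28 and 9.19 in null-labelled and 10.85 and 10.94 in wild type arrays, a difference of -1.66 ± 0.13 (3.16-fold higher in wild type, adjusted p = 0.0561). Its other probe sets gave -1.28 and -1.56. At 0 h the Cpt1a means were 9.95 and 10.09, so that the groups lay on either side of these levels at 24 h. Gys2, the liver glycogen synthase, read 8.59 and 8.63 against 9.66 and 9.55 (-1.0 ± 0.12). Elovl5, which elongates polyunsaturated fatty acids, read 10.91 and 10.81 against 12.01 and 11.83 (-1.06 ± 0.14). Dio1, the deiodinase that activates thyroid hormone, read 9.30 and 9.42 against 10.35 and 10.47 (-1.05 ± 0.14). These 3 genes differed by about the same amount and had the same adjusted p of 0.147.

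The secreted protein Igfbp1, which binds insulin-like growth factors and is induced in regenerating liver, read 10.75 and 10.56 against 12.36 and 11.89 (-1.47 ± 0.19). The complement component C6 read 8.68 and 8.33 against 9.75 and 9.70 (-1.22 ± 0.16). Ntn4, a netrin of basement membranes, read 5.60 and 5.43 against 6.80 and 6.74, and the G protein subunit Gnai1 read 6.13 and 5.98 against 7.35 and 7.20. In all of these the null-labelled arrays lay below both wild type arrays. Cyb561, a cytochrome b561, read 4.20 and 4.55 against 7.51 and 6.93 (-2.85 ± 0.39). Fam178b, Trpv1 and Lrrn4cl, which complete the lower side, had null-labelled means below the filter limit and differences of -2.49, -1.88 and -1.74. Of the 24 genes named on the 2 sides, 10 had another probe set past the filter, and 11 of these 15 probe sets had the sign of the first.

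**Figure D2:**
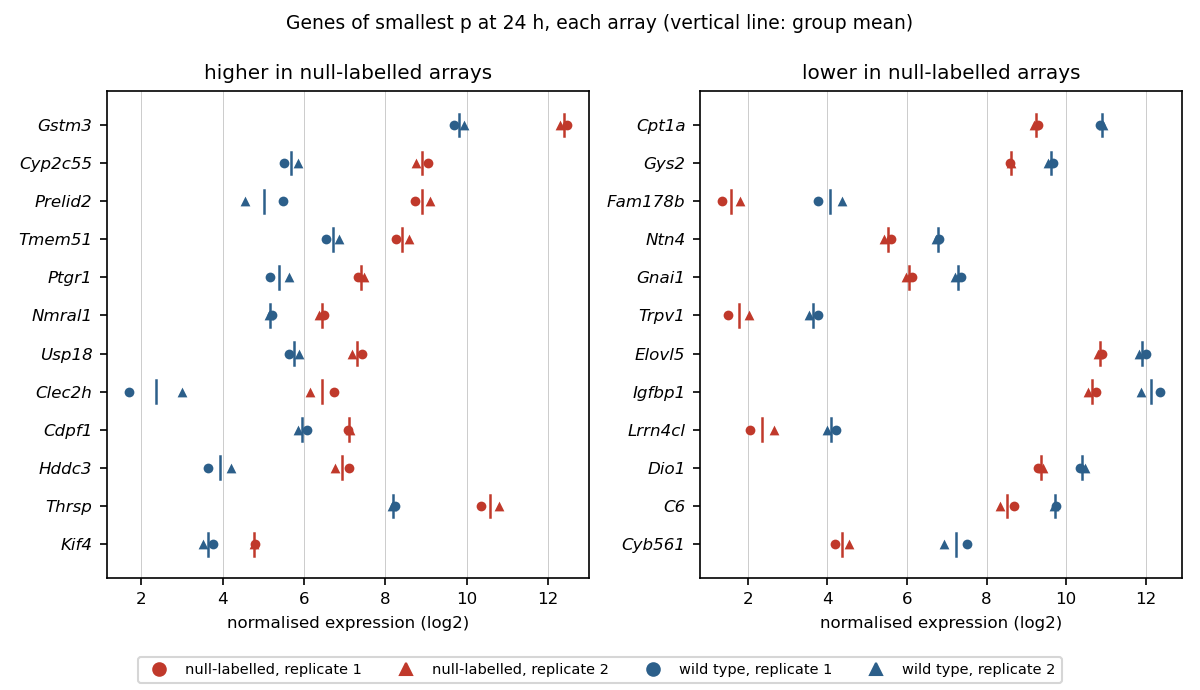
Normalised expression (x axis, log2) of the 12 genes of smallest p in each direction in the 4 arrays at 24 h, null-labelled in red and wild type in blue, circles for replicate 1, triangles for replicate 2 and vertical lines for group means. The groups do not overlap for any of the 24 genes, which the rule for naming them required, and Gstm3 at 12.46 and 12.30 lies highest in the left panel.

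Among the other mu-class glutathione transferases, none of which passed, Gstm2 read 11.30 and 11.03 in null-labelled and 9.81 and 10.04 in wild type arrays (1.24 ± 0.18, adjusted p = 0.155). Gstm6 read 8.71 and 8.77 against 7.89 and 8.07 (0.75 ± 0.12), and Gstm1 read 12.88 and 12.80 against 11.98 and 12.24 (0.73 ± 0.15). Both null-labelled arrays lay above both wild type arrays for each of these. The genes are near copies of each other, so a probe set may read RNA of several of them, and the values are not independent. Gstm4 (1.31), and Gsta4 (1.54) and Gsta2 (1.65) of the alpha class, pointed the same way. Over 33 tested genes of conjugation, which attach glutathione, glucuronate or sulfate to foreign compounds and hormones, 27 were higher and 6 lower. At an unadjusted p under 0.05, 12 were higher and 2 lower, against 6.40% and 5.33% of all genes. The list's median was 0.29, where that of all genes was 0.01. After each gene was centred on its mean of the 4 arrays, the list's medians were 0.15 and 0.17 in null-labelled and -0.26 and -0.10 in wild type arrays, which do not overlap. The sulfotransferases Sult1d1 (0.94) and Sult1b1 (0.58) and the glucuronosyltransferase Ugt2b35 (0.81) were among the higher members, and Ugt3a1 (-0.40) and Sult2a8 (-0.39) were the 2 lower ones.

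Targets of Nrf2, the transcription factor of the response to electrophiles, overlap this list through Gstm3. Of 15 tested targets, 12 were higher and 3 lower, 7 and 1 at an unadjusted p under 0.05, with a median of 0.45 (all genes, 6.40% and 5.33%). With either the second null-labelled or the first wild type array of regenerating liver left out, 4 of the targets were higher at that p. Abcc4, an export pump for organic anions, read 5.28 and 5.23 against 4.17 and 4.17 (1.08 ± 0.20, adjusted p = 0.192). Nqo1, a quinone reductase, read 7.63 and 8.46 against 6.62 and 6.83 (1.32 ± 0.35, adjusted p = 0.286), and it differed by 1.05 at 0 h as well. The arrays of the groups were apart for both. The subunits of the enzyme that starts glutathione synthesis, Gclc (0.88) and Gclm (0.45), and the pentose phosphate enzymes Pgd (0.57) and Tkt (0.37) were also higher at an unadjusted p under 0.05. Malic enzyme Me1 (-0.50) went the other way, and Hmox1 (-0.13) and Txnrd1 (-0.01), both commonly induced through Nrf2, lay near 0. The letters TGACNNNGC, the core of the element that Nrf2 binds, occurred on either strand within 250 bases upstream of the start in 3 of 12 targets with a RefSeq promoter (25%). They occurred in 13.7% of tested genes with a promoter and in 1 of 29 conjugating genes (3.45%).

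Cytochrome P450 and drug metabolism genes were divided. Of 42 tested, 27 were higher and 15 lower, 8 and 1 at an unadjusted p under 0.05, beside 6.40% and 5.33% of all genes, and the median was 0.15. As single regenerating arrays were left out, that median was 0.06 (first null-labelled), 0.02 (first wild type), 0.25 (second null-labelled) and 0.28 (second wild type). Fmo5, a flavin monooxygenase, read 12.18 and 12.21 against 11.41 and 11.45 (0.76 ± 0.12, adjusted p = 0.183), a small difference with little spread. Cyp2b10, the standard target of the nuclear receptor CAR, read 11.05 and 11.09 against 10.05 and 9.65 (1.22 ± 0.19, adjusted p = 0.184) and differed by 1.25 at 0 h. Cyp2u1 read 5.05 and 5.43 against 3.88 and 4.15 (1.22 ± 0.22, adjusted p = 0.192). Cyp2d9, a male-biased steroid hydroxylase, was the lower one, at 11.73 and 11.62 against 12.36 and 12.40 (-0.71 ± 0.13, adjusted p = 0.192). None passed.

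Genes of fatty acid oxidation and of lipid droplets were lower in null-labelled liver almost throughout. Of 41 tested, 36 were lower and 5 higher. At an unadjusted p under 0.05, 19 were lower and 0 higher, where the shares among all genes were 5.33% and 6.40%. For 30 the arrays of the groups did not overlap in the lower direction (19.7% of all genes), and none was apart in the higher. The median difference was -0.43 at 24 h and 0.01 at 0 h. The centred medians were -0.18 and -0.18 in the null-labelled and 0.14 and 0.24 in the wild type arrays, so both replicates of each group showed it. Leaving out each array in turn left 10 to 18 members lower at an unadjusted p under 0.05, the 10 being those left when the second regenerating wild type array was dropped. With median centring 8 were, and the list's median was -0.22.

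The members of smallest p after Cpt1a were a lipase, an enzyme of coenzyme A turnover and a fatty acid importer. Pnpla2, the triglyceride lipase ATGL of lipid droplets, read 8.92 and 9.19 in null-labelled and 10.24 and 10.01 in wild type arrays (-1.07 ± 0.15, adjusted p = 0.155). Vnn1, a pantetheinase that serves as a standard target of the fatty acid receptor PPARα, read 8.64 and 8.58 against 9.54 and 9.89 (-1.10 ± 0.22, adjusted p = 0.218). The fatty acid importer Cd36 read 7.87 and 7.44 against 8.78 and 8.52 (-0.99 ± 0.22, adjusted p = 0.237). For these 3 genes all null-labelled values lay below all wild type values. Ppara itself read 8.58 and 7.85 against 8.92 and 9.65 (-1.07 ± 0.33, adjusted p = 0.33). Fgf21, a hormone made by the fasting liver, read 3.69 and 5.16 against 6.10 and 6.73 (-1.99 ± 0.61, adjusted p = 0.327). Ppara and Fgf21 had wide spreads, though the groups were apart. The β-oxidation enzymes Hadha (-0.66), Acaa1a (-0.54), Ehhadh (-0.56), Cpt2 (-0.45), Ech1 (-0.43), Decr2 (-0.43) and Eci2 (-0.35), the monoglyceride lipase Mgll (-0.60) and the droplet proteins Cidec (-2.10) and Cideb (-0.56) were also lower at an unadjusted p under 0.05. The 5 higher members were the droplet coat proteins Plin5 (0.01) and Plin4 (0.32), the thioesterases Acot1 (0.09) and Acot3 (1.38) and the coactivator Ppargc1a (0.23).

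Of 28 tested genes of fatty acid and triglyceride synthesis, 20 were lower and 8 higher, and the median was -0.26. At an unadjusted p under 0.05, 9 were lower (5.33% of all genes), and the 1 higher (6.40%) was Thrsp. With the second regenerating null-labelled array left out 5 were lower at that p, and with median centring, all arrays kept, 5 were too. Besides Elovl5, the desaturase Fads2 of polyunsaturated fatty acids read 9.51 and 9.26 against 10.31 and 10.50 (-1.02 ± 0.16, adjusted p = 0.183). Elovl2, which extends the same fatty acids further, read 10.94 and 10.49 against 11.54 and 11.65 (-0.88 ± 0.17, adjusted p = 0.218). The groups were apart in both. The medians of the list were -0.03 and -0.35 in null-labelled and 0.05 and 0.19 in wild type arrays, so the nearest arrays of the groups lay close together. Without the first null-labelled array the list's median was -0.45. Cholesterol synthesis genes had a median of 0.31 with 17 of 20 higher. Here the arrays overlapped, at 0.34 and -0.04 in null-labelled and -0.55 and 0.19 in wild type, and the median ran from 0.04 to 0.74 as single arrays were left out.

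Lipoprotein and glucose genes held single members with small spreads. Apob, the structural protein of very low density lipoprotein, read 11.77 and 11.44 against 12.57 and 12.72 (-1.04 ± 0.16, adjusted p = 0.161). Mttp, which loads lipid onto Apob, differed by -0.55 and Apoa4 by -0.88, the latter at 12.04 and 12.02 against 12.98 and 12.84. At 0 h Apoa4 was 1.16 higher in null-labelled liver. Of 19 apolipoprotein genes, 8 were higher and 11 lower, 1 and 5 at an unadjusted p under 0.05 (6.40% and 5.33% of all genes), and their median was -0.01. Of 26 genes of glucose metabolism, 21 were lower and 5 higher, 4 and 2 at an unadjusted p under 0.05, with a median of -0.16. Next to Gys2, the gluconeogenic pyruvate carboxylase Pcx read 9.67 and 9.58 against 10.48 and 10.19 (-0.71 ± 0.15, adjusted p = 0.225).

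**Figure D3:**
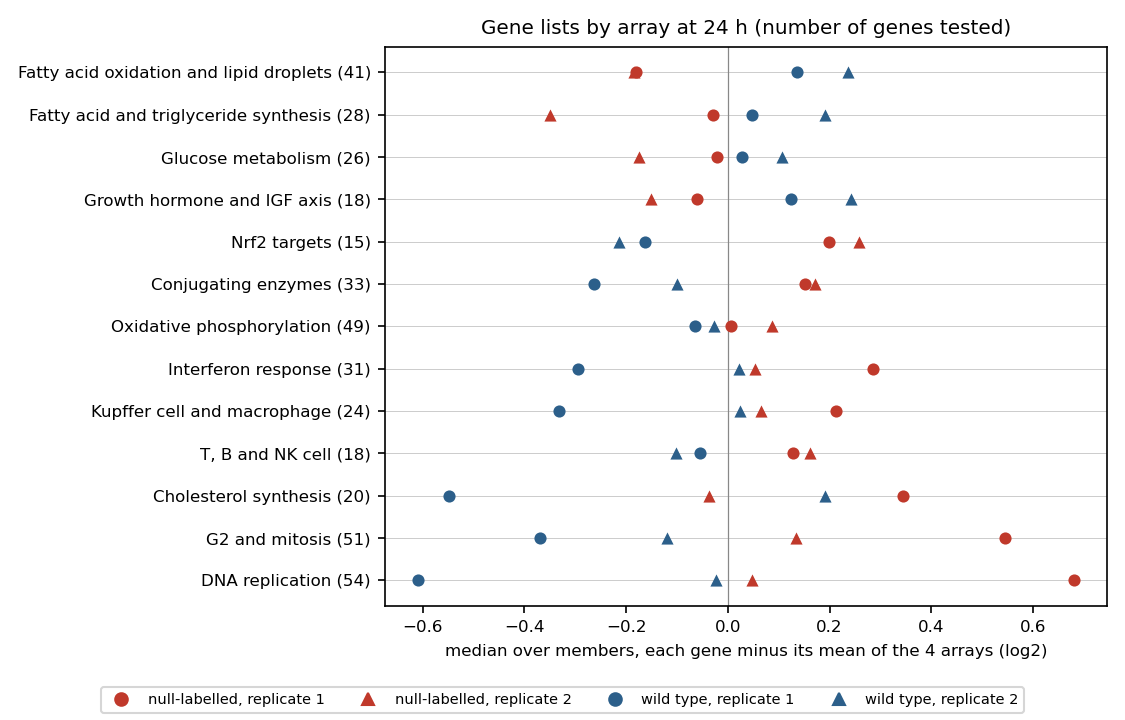
Median of each list in each array at 24 h (x axis, log2), after every gene was centred on its mean of the 4 arrays, null-labelled in red and wild type in blue, circles for replicate 1 and triangles for replicate 2, with the number of genes tested in brackets. In fatty acid oxidation and Nrf2 targets the replicates of a group lie close together. In DNA replication they lie at 0.68 and 0.05 in null-labelled and at -0.61 and -0.02 in wild type arrays.

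Genes of DNA replication were mostly higher in null-labelled liver, with a wide spread within each group. Of 54 tested, 46 were higher and 8 lower, with a median of 0.63. At an unadjusted p under 0.05, 15 were higher and 0 lower, beside 6.40% and 5.33% of all genes. For 23 members the arrays were apart in the higher direction (20.9% of all genes) and for 2 in the lower. The centred medians were 0.68 and 0.05 in null-labelled and -0.61 and -0.02 in wild type arrays. The lower null-labelled and the higher wild type array, both numbered 2, thus nearly met. Replicate numbers were not taken as pairs. With the first regenerating null-labelled array left out the median was 0.28 and 9 members were higher at an unadjusted p under 0.05, and without the first wild type array they were 0.37 and 8. Without the second null-labelled array they were 1.03 and 28, and without the second wild type array 0.98 and 25. At 0 h the median was -0.12.

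Among the replication genes, Rrm2, the regulated subunit of ribonucleotide reductase, read 8.42 and 8.10 in null-labelled and 7.15 and 6.46 in wild type arrays (1.45 ± 0.26, adjusted p = 0.192). Pcna, the sliding clamp of the replicative polymerases, read 10.32 and 9.95 against 8.99 and 9.35 (0.97 ± 0.19, adjusted p = 0.218). Tk1, the thymidine kinase of S phase, read 6.20 and 5.94 against 3.43 and 4.83 (1.94 ± 0.43, adjusted p = 0.24). The groups did not overlap for these 3 genes. Orc6 of the origin recognition complex differed by 0.92, Rpa3 of the single-strand binding protein by 1.19 and the dUTPase Dut by 1.12. The other members named were Tipin (0.60), Slbp (0.71), Chaf1b (0.51), Gins1 (1.03), Asf1b (2.12) and Rfc5 (1.0). Mcm5, a subunit of the replicative helicase, read 9.08 and 8.03 against 6.66 and 7.97 (1.24 ± 0.51, adjusted p = 0.426). Uhrf1, which keeps DNA methylation through replication, read 7.67 and 5.90 against 4.29 and 5.56 (1.86 ± 0.86, adjusted p = 0.466). For both of these the spread within each group was wide, and the nearest arrays of the groups lay close together.

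Genes of G2 and mitosis followed a like order of arrays. Of 51 tested, 40 were higher and 11 lower, 21 and 1 at an unadjusted p under 0.05, with a median of 0.62, where the median at 0 h was 0.06 and the shares among all genes at 24 h were 6.40% and 5.33%. With the first regenerating null-labelled array left out the 21 fell to 8 and the median to 0.34, and without the first wild type array the 21 fell to 12. The centred medians were 0.54 and 0.13 in null-labelled and -0.37 and -0.12 in wild type arrays. Cdk1, the kinase that drives entry into mitosis, read 7.90 and 7.22 against 4.38 and 5.84 (2.45 ± 0.48, 5.48-fold, adjusted p = 0.218). Cks2, its binding partner, read 10.07 and 9.77 against 8.45 and 8.95 (1.22 ± 0.21, adjusted p = 0.192). Mad2l1 of the spindle checkpoint read 7.38 and 7.03 against 5.36 and 5.93 (1.56 ± 0.31, adjusted p = 0.225). In all 3 both null-labelled arrays lay above both wild type arrays, by the least in Cks2. Kif4, with 1.14 ± 0.14, had the smallest p of the list. Birc5, or survivin, read 5.92 and 5.10 against 2.23 and 3.25, and with Cenph and Nuf2 it had wild type means below the filter limit. Ube2c, the ubiquitin-conjugating enzyme of mitotic exit, read 5.89 and 5.37 against 4.26 and 4.65 (1.17). The kinase Pbk (2.61), the anaphase activator Cdc20 (1.09) and the kinetochore protein Spc24 (0.93) were also higher at an unadjusted p under 0.05. The proliferation marker Mki67 (0.34) was not. The probe sets of Ccna2, cyclin A2, disagreed. The brighter read 6.05 and 6.51 against 6.60 and 6.36 (-0.20), and the dimmer read 5.58 and 5.12 against 2.90 and 3.18 (2.31, adjusted p = 0.279 among probe sets), with both wild type values below the filter limit.

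Promoters of these genes are shown because members of both lists differed in the same direction and because the letters behind cell cycle control can be read in them. For each list the 2 tested members of smallest p whose window held the letters were taken from RefSeq's promoters on GRCm38.p6, 250 bases upstream of the start, 5′ to 3′ on the gene's strand. In the replication genes capitals mark the letters TTTGGCGC, TTTCGCGC, TTTCCCGC or TTTGCCGC on either strand, which the E2F factors bind. In the mitosis genes capitals mark CCAAT, the box of NF-Y, and TTTGAA, the cell cycle homology region or CHR, on either strand; E2F letters, held by 2 of 42 of these genes, are not marked there.
Mcm5, chr8:75109259-75109508, plus strand: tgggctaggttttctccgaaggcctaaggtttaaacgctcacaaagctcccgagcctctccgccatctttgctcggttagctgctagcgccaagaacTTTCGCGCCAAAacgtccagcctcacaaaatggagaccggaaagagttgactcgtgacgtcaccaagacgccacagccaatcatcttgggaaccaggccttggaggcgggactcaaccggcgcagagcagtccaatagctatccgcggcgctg
Uhrf1, chr17:56304063-56304312, plus strand: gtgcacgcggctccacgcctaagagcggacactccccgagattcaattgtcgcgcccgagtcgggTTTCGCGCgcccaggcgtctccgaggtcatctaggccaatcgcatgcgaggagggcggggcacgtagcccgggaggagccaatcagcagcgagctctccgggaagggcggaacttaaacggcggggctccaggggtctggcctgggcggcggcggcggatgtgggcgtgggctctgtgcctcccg
Cdk1, chr10:69352913-69353162, minus strand: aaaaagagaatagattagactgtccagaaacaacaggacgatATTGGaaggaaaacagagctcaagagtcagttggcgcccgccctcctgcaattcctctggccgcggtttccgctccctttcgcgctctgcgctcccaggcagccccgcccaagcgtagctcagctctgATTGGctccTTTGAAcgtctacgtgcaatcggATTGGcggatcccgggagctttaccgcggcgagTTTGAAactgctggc
Ube2c, chr2:164769679-164769928, plus strand: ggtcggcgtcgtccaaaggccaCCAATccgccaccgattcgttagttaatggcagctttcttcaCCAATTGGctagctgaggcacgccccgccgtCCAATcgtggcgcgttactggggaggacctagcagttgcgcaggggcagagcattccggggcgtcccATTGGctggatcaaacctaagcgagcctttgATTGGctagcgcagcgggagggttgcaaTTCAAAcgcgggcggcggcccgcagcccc
In Mcm5 the matches begin 153 and 149 bases before the start and overlap, and in Uhrf1 the match begins 185 bases before it. In Cdk1 the CCAAT letters, read as ATTGG, begin 208, 80 and 48 bases before the start and the CHR letters 71 and 15. Ube2c has 6 CCAAT matches, of which those at 186 and 183 overlap, and a CHR match 29 bases before the start.

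The E2F letters were in 11 of 44 replication genes with a RefSeq promoter (25%), in 3.57% of 11555 tested genes and in 1.86% of all 32851 promoters. Of the 12 replication genes with a promoter that were higher at an unadjusted p under 0.05, 0 held these letters. The CHR letters were in 16 of 42 G2 and mitosis genes (38.1%), in 13.5% of tested genes and in 16% of all promoters. CCAAT was in 29 of 42 (69.0%), in 39.6% of tested genes and in 33.8% of all promoters. Of the 17 G2 and mitosis genes with a promoter that were higher at an unadjusted p under 0.05, 4 held the CHR letters and 11 held CCAAT. A match describes the letters only, and its absence says only that these letters are not in the window.

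Regulators of the G1 to S step differed less. Of 25 tested, 15 were higher and 10 lower at 24 h, with a median of 0.12, where the median at 0 h was 0.15. At an unadjusted p under 0.05, 4 were higher (16%) and 1 lower (4%), beside 6.40% and 5.33% of all genes. Cdk4, the kinase of D-type cyclins, read 8.88 and 8.91 against 8.40 and 8.27 (0.56 ± 0.11) and differed by 0.53 at 0 h. Skp2, which marks the inhibitor p27 for destruction, read 6.82 and 5.93 against 5.12 and 5.17 (1.23 ± 0.28). Its cofactor Cks1b differed by 0.83 at 24 h and by 1.03 at 0 h. Cyclin D1, Ccnd1, read 9.94 and 9.40 against 8.83 and 8.75 (0.88 ± 0.45, adjusted p = 0.505). Its groups were apart at 24 h, and also at 0 h, where it read 8.73 and 7.53 against 6.41 and 7.18. Ccne1 differed by 0.26, and its second, dimmer probe set read 5.66 and 5.78 against 5.14 and 4.92 (0.69, adjusted p = 0.393 among probe sets in limma). The inhibitor Cdkn1a differed by -0.61, with overlapping arrays. DNA repair genes had a median of 0.25, with 17 of 22 higher. At an unadjusted p under 0.05, 3 were higher (13.6%) and 1 lower (4.55%). The arrays were apart for 4 in the higher direction (20.9% of all genes) and for 3 in the lower (19.7%). The list's centred medians overlapped, at 0.21 and -0.08 in null-labelled and -0.22 and 0.03 in wild type arrays.

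**Figure D4:**
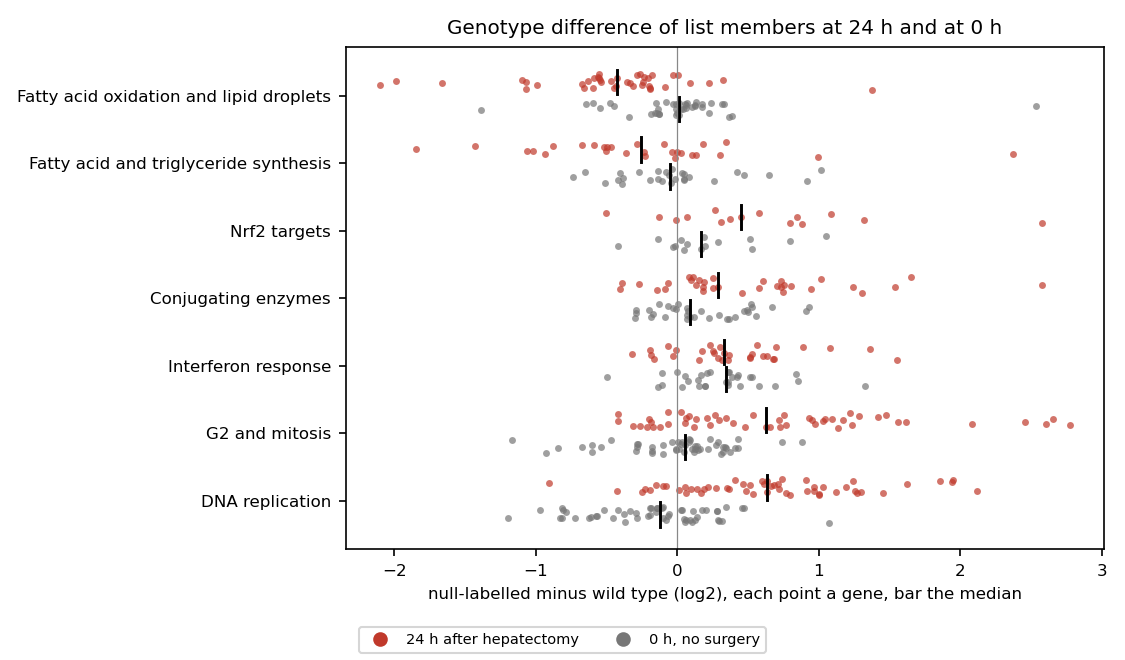
Genotype difference (x axis, null-labelled minus wild type, log2) of each tested member of 7 lists at 24 h (red) and at 0 h (grey), with black bars at the medians. The medians at 24 h and 0 h are 0.63 and -0.12 for DNA replication, 0.62 and 0.06 for G2 and mitosis, -0.43 and 0.01 for fatty acid oxidation and 0.33 and 0.34 for the interferon response.

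Growth factor and hormone signalling genes held several lower members. Of 27 growth factors and receptors of regeneration, 19 were lower and 8 higher, 3 and 0 at an unadjusted p under 0.05, and of 18 genes of the growth hormone and IGF axis 12 were lower and 6 higher, 5 and 0. Among all genes 5.33% were lower and 6.40% higher at that p. The lists share Igfbp1 and Egfr. Egfr, the receptor for EGF and TGFα in hepatocytes, read 9.32 and 8.66 against 11.13 and 10.35 (-1.75 ± 0.37, adjusted p = 0.231), where the 0 h means were 11.19 and 10.95. Cish, a feedback inhibitor induced by growth hormone through STAT5, read 5.53 and 6.00 against 7.38 and 7.09 (-1.47 ± 0.21, adjusted p = 0.155) and was 0.82 higher in null-labelled liver at 0 h. The groups were apart for both genes. Irs2, a docking protein of the insulin receptor, differed by -1.15. Inhbe, the βE subunit of activin made by the liver, read 7.48 and 7.26 against 8.46 and 8.96 (-1.34 ± 0.21, adjusted p = 0.184). Met, the receptor for hepatocyte growth factor, differed by -0.27 (adjusted p = 0.453). Plk3, a stress-responsive kinase listed with p53 targets, read 6.10 and 5.92 against 8.23 and 7.45 (-1.84 ± 0.26, adjusted p = 0.155).

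Bile acid and amino acid genes had members on both sides. Akr1d1, a reductase of bile acid synthesis, read 9.40 and 9.49 against 7.54 and 8.31 (1.52 ± 0.25, adjusted p = 0.192), and the bile salt export pump Abcb11 differed by 1.70 ± 0.40. Cyp8b1, the sterol 12-hydroxylase that sets the mix of bile acids, read 8.20 and 7.07 against 9.22 and 10.30 (-2.13 ± 0.49, adjusted p = 0.251). Over 31 bile acid genes 13 were higher and 18 lower, with a median of -0.04, so the list as a whole did not lean. Among 42 genes of the urea cycle and amino acid catabolism, Cth, which makes cysteine, read 11.31 and 11.74 against 10.05 and 10.48 (1.26 ± 0.21, adjusted p = 0.192), and the histidine ammonia lyase Hal differed by 1.88. The alanine transaminase Gpt2 differed by -1.20 and the glyoxylate transaminase Agxt by -0.74. The median of these 42 genes was -0.03.

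Interferon response genes were higher in null-labelled liver at 24 h, and they were so at 0 h as well. Of 31 tested, 24 were higher and 7 lower, 12 and 0 at an unadjusted p under 0.05, with a median of 0.33 at 24 h and 0.34 at 0 h (all genes at 24 h, 6.40% and 5.33%). The median at 24 h was 0.21 without the first null-labelled array, 0.18 without the first wild type array and 0.59 without the second. Usp18, which removes the ubiquitin-like Isg15 and damps interferon signalling, read 7.43 and 7.18 against 5.63 and 5.88 (1.55 ± 0.17, adjusted p = 0.147). Oasl1, a brake on interferon production, read 6.99 and 6.58 against 5.30 and 5.55 (1.36 ± 0.24, adjusted p = 0.192). Irf7, a transcription factor of interferon genes, read 7.76 and 7.28 against 6.32 and 6.56 (1.08 ± 0.22, adjusted p = 0.225). The groups were apart for all 3 genes. The list's centred medians nearly met, at 0.29 and 0.05 in null-labelled and -0.30 and 0.02 in wild type arrays. The RNA sensors Ifih1 (0.68) and Ddx58 (0.70) and the chemokine Cxcl10 (0.88) were also higher at an unadjusted p under 0.05.

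Markers of immune cells lay beside these. Of 24 Kupffer cell and macrophage markers 22 were higher and 2 lower, 5 and 0 at an unadjusted p under 0.05 (6.40% and 5.33% of all genes), with a median of 0.26. With the first regenerating wild type array left out the median was 0.10 with 4 higher at that p, and without the second it was 0.50 with 11. Their summed linear signal was 4977 and 4958 in null-labelled and 3681 and 4344 in wild type arrays. C1qa, a complement subunit made by macrophages, read 8.73 and 8.83 against 8.17 and 8.34 (0.53 ± 0.12, adjusted p = 0.253), and Cd68 (0.59), Tyrobp (0.53) and Lyz2 (0.81) pointed the same way. The Kupffer-restricted Clec4f differed by 0.26 and Timd4 by 0.26. T, B and NK cell markers summed to 790 and 808 against 654 and 657 over 18 genes. In bulk RNA, more cells of a type and more RNA per cell cannot be told apart, and the part of these cells in the interferon values was not tested. Neutrophil (-0.03), endothelial (0.07), stellate (-0.03) and erythroid (-0.08) markers had medians near 0.

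Some genes differed in the same direction at 24 h and in unoperated liver at 0 h. Prelid2 read 8.72 and 9.10 in null-labelled and 5.48 and 4.56 in wild type arrays at 24 h (3.89 ± 0.31, adjusted p = 0.0561), and at 0 h it read 6.57 and 6.43 against 2.91 and 2.84. The wild type values at 0 h lie below the filter limit of 3.60, so only the direction is given there. Hddc3 differed by 3.00 at 24 h and 2.88 at 0 h, Tmem51 by 1.71 and 1.63, and Ntn4 by -1.25 and -1.04. In Prelid2 and Hddc3 a second, dimmer probe set gave -0.13 and -0.76 at 24 h, so their difference rests on 1 probe set each. Igfbp1 differed by -1.47 and -2.60. Cyb561, which differed by -2.85 at 24 h, read 2.86 and 1.88 against 5.38 and 5.87 at 0 h, with both null-labelled values below the limit. Moxd1, a male-biased monooxygenase, read 3.25 and 3.29 against 7.22 and 8.61 at 24 h (-4.65 ± 0.91, adjusted p = 0.218), and 3.33 and 2.18 against 7.13 and 4.56 at 0 h, with all 4 null-labelled values below the filter limit. Of the genes with an unadjusted p under 0.05 at 24 h, 230 had one at 0 h in the same direction, 141 higher and 89 lower. They make up 13.6% of the 24 h genes and 16.5% of the 0 h genes, and 75 others had opposite directions.

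The difference between the 2 times was tested for every gene as the genotype difference at 24 h minus that at 0 h, and 0 genes passed in limma at an adjusted p under 0.05 (660 higher, 4.57%, and 584 lower, 4.04%, at an unadjusted p under 0.05, and 10 genes past the threshold with a trended and robust prior). Gstm3 had the smallest p among the genes named on the higher side, at 9.2e-05 (adjusted p = 0.301), with a difference of 0.53 at 0 h. Cpt1a had a p of 0.00017 and a difference of -0.15 at 0 h. At 0 h, in turn, 0 genes passed between the genotypes, while 703 (4.87%) were higher and 687 (4.75%) lower at an unadjusted p under 0.05. Across all 14450 genes, which share arrays and are not independent, the differences at the 2 times correlated weakly (Pearson's r 0.148, Spearman's rho 0.108).

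**Figure D5:**
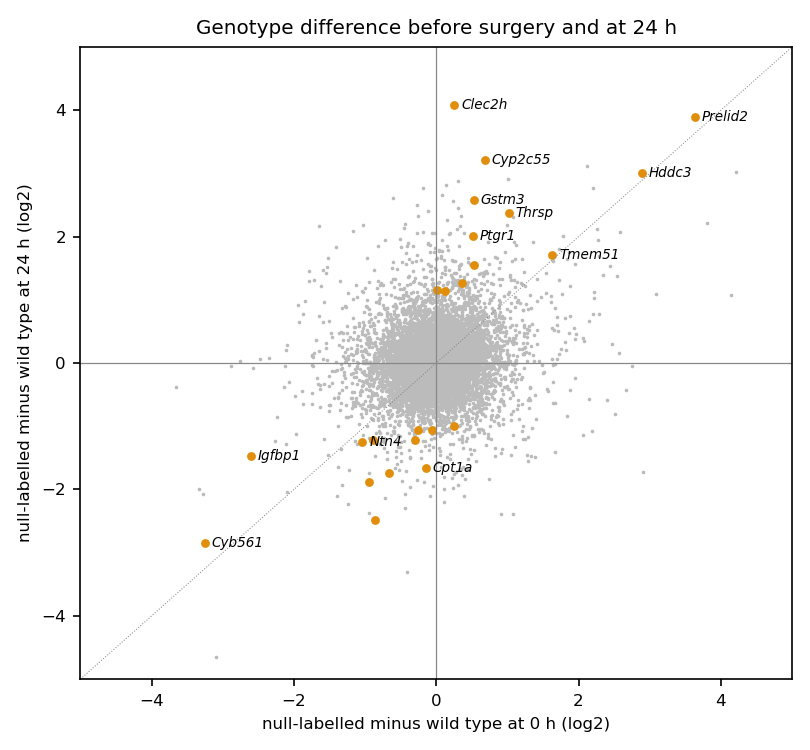
Genotype difference (null-labelled minus wild type, log2) at 0 h (x axis) and at 24 h (y axis) for 14450 genes, with the dotted line where both are equal and the 24 named genes in orange. Hddc3, Tmem51 and Ntn4 lie near the line, as do Prelid2 and Cyb561, whose lower group at 0 h is below the filter limit, while Clec2h, Cpt1a, Gstm3 and Cyp2c55 lie at 0.26, -0.15, 0.53 and 0.68 on the x axis.

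Among the further lists given here, the female-biased genes had the largest median at 24 h. Of 49 oxidative phosphorylation genes 37 were higher and 12 lower, with a median of 0.13. At an unadjusted p under 0.05, 3 were higher (6.12%) and 1 lower (2.04%), no more than the 6.40% and 5.33% of all genes. For 32 the arrays of the groups were apart in the higher direction (20.9% of all genes) and for 5 in the lower (19.7%). Of 24 hepatocyte transcription factors 19 were lower and 5 higher, with a median of -0.15, and of 31 complement and coagulation genes 21 were lower and 10 higher, with a median of -0.13. The acute phase list had a median of -0.02, with Saa3 (1.10) and Orm3 (0.71) above and the transcription factors Stat3 (-0.54) and Cebpb (-0.42) below 0. Proteasome (0.03), ribosome biogenesis (-0.03), ER chaperone (0.04) and BTG/TOB and CCR4-NOT genes (0.00) had medians close to that of all genes. Immediate early genes (-0.17) had 0 members at an unadjusted p under 0.05 in either direction. Of 14 female-biased liver genes 12 were higher and 2 lower at 24 h, with a median of 0.36 and 0 members at an unadjusted p under 0.05 in either direction. At 0 h their median was 0.63, with centred medians of 1.05 and -0.49 in null-labelled and -0.38 and -0.35 in wild type arrays, so that value rests on the first null-labelled array. Of 21 male-biased genes 11 were higher and 10 lower, with a median of 0.01, and 1 and 6 were so at an unadjusted p under 0.05 (6.40% and 5.33% of all genes).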

How the data were processed

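Liver RNA was measured on 8 arrays, and the 4 at 24 h were compared here; the 4 at 0 h entered the fit to share the estimate of spread. The deposited values are log2 signals, as read from the values, which the authors had scaled per array; the algorithm and its version are not given in the sources used here. The quartiles of the arrays lay up to 0.62, 0.38 and 0.17 apart, more than the 0.1 allowed, and the values were therefore quantile normalised. Probe sets above the 40th percentile of their array in at least 2 of 8 arrays were kept. The brightest probe set by mean stood for a gene with a single symbol, named from GEO's platform annotation (34958 probe sets with 1 symbol, 932 with several, 9160 without an entry). A further 5008 probe sets without a single symbol were tested apart, and 0 passed. Of these, 229 were higher and 301 lower at an unadjusted p under 0.05, where 6.40% of named genes were higher and 5.33% lower.

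A mean per group was fitted with limma 3.58.1 in R 4.3.3 (4 residual and 2.01 prior degrees of freedom), with Benjamini-Hochberg adjustment at 0.05. The procedure was tested on simulated data with independent noise for each gene. Those data lack any spread that the genes of an array share, so they cannot show its part in the calls. No counting depth applies to arrays, and their number limits the precision. Each pool held different animals, and p-values measure the spread between pools.

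Genes named are the 12 largest in each direction among those that passed, filled by the smallest p among genes whose arrays do not overlap and with a group mean above 3.60, predicted genes skipped; then up to 4 members of each of 47 lists by p (12 for replication and mitosis) and a fixed set around Tob1 and the cell cycle. Moxd1, Plk3 and others come in through the lists, and further list members were named after their values were seen. The members and lists were chosen with earlier results of these data known. Replicate numbers were checked as pairs: deviations of same-numbered arrays at 24 h correlated at -0.197, so the numbers were not taken as pairs. Alternatives were other normalisations, filters, probe set rules, priors, weights, blocks, thresholds, damping of low values, fits of only the groups compared and leaving out each array. Promoter letters were searched in RefSeq windows of GRCm38.p6.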

Additional observations from a re-analysis of the deposited data

Results flagged for a closer look

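In 6 of 47 lists the centred medians of the null-labelled arrays all lay on one side of the wild type arrays at 24 h and all on the other side at 0 h. For the lists the difference between the times was not tested. DNA replication genes had a median genotype difference of 0.63 at 24 h and -0.12 at 0 h. The gap between the groups was small, as the nearest null-labelled and wild type arrays had centred medians of 0.05 and -0.02 at 24 h. At 0 h these were 0.001 and 0.013. Kupffer cell and macrophage markers had 0.26 and -0.14, T, B and NK cell markers 0.34 and -0.20, and cholangiocyte and progenitor markers 0.21 and -0.28. At 24 h, 6 of 18 T, B and NK cell markers had a wild type mean below the filter limit, and 6 had such a null-labelled mean. Of 14 cholangiocyte and progenitor markers these were 5 and 2. In that list 10 were higher and 4 lower, with Sox9 (-0.97) and Cd24a (-0.83) among the lower. Oxidative phosphorylation genes had 0.13 and -0.05, and hepatocyte transcription factors -0.15 and 0.15. The medians of the arrays were apart in 19 of the 47 lists at 24 h and in 29 at 0 h. Groups of 2 arrays are too small for a test of single outlying arrays.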

How the results depend on the processing

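The count of 1 gene at 24 h was 3 with median centring, 30 with 16 added on the linear scale before the log, 9 with a filter at the 60th percentile, 109 with a trended and robust prior, 4 at an adjusted p under 0.1 and 497 at an unadjusted p under 0.01. It was 0 with no filter, with array weights, with the replicate block, with the crossed replicate block (added after the data were seen, since the deviations correlated below -0.1) and with only the groups compared, and 0 to 1 as single arrays were left out; with the second regenerating null-labelled array left out the 1 gene was not Gstm3. The adjusted p of Gstm3 was 0.0531 with no filter, 0.112 with array weights, 0.243 with the replicate block, 0.134 with the crossed block and 0.434 with only the groups compared. The count of 0 genes at 0 h was 3 on the deposited values, 2 with median centring, 7 with 16 added, 1 with no filter, 8 with the filter at the 60th percentile, 13 with the trended prior, 5 with array weights, 2 at an adjusted p under 0.1 and 345 at an unadjusted p under 0.01. That of the difference between times was 10 with the trended prior and 256 at an unadjusted p under 0.01. Genes with an unadjusted p under 0.05 at 24 h were 1695, and 1128 with only the groups compared, 653 higher and 475 lower. On the deposited values the split was 847 higher and 877 lower, and with median centring 1421 and 359, as the median over all genes moved to 0.14.

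Fatty acid oxidation had a median of -0.37 on the deposited values, -0.22 with median centring and -0.37 with the mean of probe sets, and -0.43 to -0.34 as single arrays were left out. Conjugating enzymes had 0.46 with median centring and 0.21 to 0.37 over single arrays; Nrf2 targets had 0.63 with median centring, 0.37 with 16 added, 0.34 with the mean of probe sets and 0.34 to 0.45 over single arrays. G2 and mitosis had 0.33 with 16 added and 0.34 to 0.68 over single arrays. Fatty acid synthesis ran from -0.45 to -0.21, the interferon response from 0.18 to 0.59, Kupffer markers from 0.10 to 0.50 and cholesterol synthesis from 0.043 to 0.74. None of the lists in this paragraph changed sign under any alternative, nor did DNA replication or cytochrome P450. The other lists were not checked in this way. Of 215 named genes, 197 kept their sign in every alternative. Tob1 was among those that did not: its value was -1.30 with the probe set of largest variance and -0.36 with the mean of probe sets. The cause of these shifts was not tested. Where an array was left out, the lone array of its group was assumed to vary like the others.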

Other observations

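In RefSeq's gene order on chromosome 11, the 100 tested genes on each side of Tob1 held 6 genes of 200 with an unadjusted p under 0.05 and the same direction at both times, against 24 of 1171 on chromosome 11 without Tob1 (2.05%) and 230 of 14422 tested genes with a chromosome. At 24 h alone, 22 of the 200 had an unadjusted p under 0.05 (11%), beside 11.74% of all. The window was chosen after the data were seen and no test was made. Among the 6 were the phosphatidylcholine transfer protein Pctp, 12 tested genes from Tob1, at 10.20 and 10.55 in null-labelled and 10.95 and 10.90 in wild type arrays at 24 h (difference -0.55, and -0.43 at 0 h), and the chromatin remodelling subunit Smarce1 (-0.42 and -0.63). Dhx40 (-0.56 and -0.37) and Ypel2 (-0.62 and -0.59) were lower as well. Ints2 (0.44 and 0.50) was higher, as was 1110028F11Rik (1.36 and 1.04), whose wild type values lay below the filter limit. Among the circadian genes, Dbp was 2.15 higher in null-labelled liver at 0 h and differed by -0.58 at 24 h, at 6.01 and 5.90 against 6.41 and 6.66 (adjusted p = 0.382 in limma), with a p of 9.7e-05 for the difference between the times before adjustment. After adjustment 0 genes passed that test. Ciart was higher at both times, by 2.35 at 0 h and 1.39 at 24 h. Usp2 (1.56) and Bhlhe40 (-0.99) differed in opposite directions at 24 h. Of 19 core clock genes 8 were higher and 11 lower at 24 h, with a median of -0.03.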
